A study of Oryza sativa Japonica Group with 59 samples.

Results

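The expression of 7 rice genes with roles in gamete identity or gamete fusion was followed through reproductive cells. These were *HAP2* (also *GCS1*, LOC_Os05g18730), *GEX1* (LOC_Os09g27040), *GEX2* (LOC_Os09g25650), *GEX3* (LOC_Os01g42060), the phospholipase gene *MATL* (LOC_Os03g27610), *DUO1* (LOC_Os04g46384) and *ECA1-like1* (LOC_Os03g18530). They were picked by identifier, 7 of the 55986 features in each file, with no threshold on a measured value. The files give identifiers only, so the gene names are those that came with the list of identifiers. All 7 had over 3 counts in at least 1 library.

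In flowering plants, a pair of sperm cells is carried by each pollen grain, and the egg fuses with one of them. *HAP2* encodes the sperm membrane protein that merges the gamete membranes, and in Arabidopsis *GEX2* encodes a sperm surface protein for gamete attachment, *GEX1* a protein of the nuclear envelope needed for fusion of the gamete nuclei, and *GEX3* a plasma membrane protein found in gametes. In Arabidopsis, the MYB transcription factor DUO1 switches on male germline genes, *MATL* is known from maize and rice as a pollen phospholipase gene whose loss causes haploid seed, and ECA1-like proteins are small, cysteine-rich and secreted, with members known from egg cells.

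RNA-seq was made from 27 samples of the japonica variety ZH11, in 10 groups of isolated, pooled cells. Mutants of the chromomethylase genes *CMT3b* and *CMT3a*, whose enzymes methylate cytosines in CHG context, were made with CRISPR/Cas9, and the plants used no longer carried Cas9. The mutant groups were *cmt3b* meiocyte (3 libraries), sperm (3), egg (2) and zygote (3), and *cmt3a* egg (2). The wild type (WT) groups, from plants regenerated in tissue culture, were meiocyte (3), unicellular microspore (3), sperm (2 files), egg (3) and zygote (3). Zygotes were taken 6 to 8 h after fertilization. Which mutant line gave which library is not given in the sources used here, and neither is whether replicates came from separate plants, so p-values measure only the spread between libraries.

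Libraries held 9240046 to 25610860 counts. Between the 2 WT sperm files, counts differed by less than sampling noise (chi-square per degree of freedom 0.266, against 1.39 to 7.05 in 23 other replicate pairs), so both together were taken as 1 sample and nothing set against WT sperm has a test. *CMT3b* was at 0.00929 TPM in *cmt3b* egg against 1.42 in WT egg and 0.994 TPM in *cmt3b* sperm against 7.77 in WT sperm, and *CMT3a* was at 4.66 TPM in *cmt3a* egg against 12.8 in WT egg. *CMT3b* was also low in *cmt3a* egg, at 0.152 TPM, and *CMT3a* was at 18.8 TPM in *cmt3b* egg. In *cmt3b* zygote *CMT3b* stood at 0.899 TPM against 2.04 in WT zygote, and in *cmt3b* meiocyte at 1.45 TPM against 7.13 in WT meiocyte. Lists of loci for other cells were summed, with identifiers taken from general knowledge of rice and without an annotation of them at hand. The 3 loci for the pollen vegetative cell summed to 24.2 to 25.2 TPM in *cmt3b* sperm and 26.6 to 26.9 TPM in WT sperm, against at most 0.992 TPM in any other library, with no locus at 0 in sperm. Of these, 1 locus held most of the sum, with 19.0 TPM in *cmt3b* sperm and 23.8 TPM in WT sperm. The other 2 went opposite ways, 0.159 against 1.41 TPM and 5.59 against 1.59 TPM. The 5 loci for the tapetum summed to 72.0 to 82.6 TPM in *cmt3b* sperm and 66.8 to 67.6 TPM in WT sperm, with 2 of them at 0 in WT sperm. Within that list LOC_Os11g37280 had 47.9 TPM in *cmt3b* sperm and 0 in WT sperm, and LOC_Os07g36460 had 12 TPM in *cmt3b* sperm and 67 TPM in WT sperm. The part of these loci in the results on sperm was not tested. In a bulk sample, fewer cells of a type and less RNA per cell cannot be told apart.

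In WT, 5 of the 7 genes were sperm genes, *HAP2*, *GEX1*, *GEX2*, *GEX3* and *DUO1*. A gene was counted as specific to a cell type when its mean level, in TPM (a level relative to gene length and library size), was at least 10 TPM and over 10 times that of each other WT cell type. By this rule 1565 of 17961 genes with at least 10 TPM in a WT cell type, or 8.71%, were specific to sperm, whereas 2 genes (0.0111%) were specific to egg and 125 (0.696%) were over 10 times higher in both egg and zygote than elsewhere. None of the 7 genes was specific to egg, alone or together with zygote. *MATL* was listed at 0 in both WT sperm files, and *ECA1-like1* was found in egg, zygote and meiocyte alike.

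*HAP2*, the membrane fusogen, was the highest of the 7 genes in WT sperm, at 2085 and 2097 TPM in its 2 files. The other WT libraries had 6.60 to 6.94 TPM in egg, 4.07 to 5.21 in zygote, 2.44 to 3.44 in microspore and 0.927 to 1.29 in meiocyte. The sperm mean was 311 times the egg mean, and *HAP2* ranked 20th among the 1565 sperm-specific genes. Below sperm, zygote and egg did not differ at the limits used (zygote over egg, log2 fold change -0.20, SE 0.09, adjusted p = 0.0535), and microspore was higher than meiocyte (1.49, SE 0.19, adjusted p = 2.48e-08 by edgeR). Egg was also higher than meiocyte (1.91, SE 0.14, adjusted p = 1.85e-15). *HAP2* RNA in the WT egg stood at 0.322% of its sperm level, with 186 to 305 counts per library.

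*GEX1*, the nuclear envelope gene, had 1818 and 1826 TPM in the WT sperm files. The next cell type was meiocyte, with 0.454 to 0.961 TPM, and the sperm mean was 2597 times the meiocyte mean. Microspore had 0.457 to 0.585 TPM, zygote 0.298 to 0.351 TPM and egg 0.163 to 0.293 TPM, the last from 7 to 9 counts. *GEX1* was the gene of the 7 with the lowest egg level relative to sperm among those detected in egg, at 0.0125%. It was lower in egg than in meiocyte (log2 fold change -2.32, SE 0.34, adjusted p = 7.17e-08), but its neighbours in the order, microspore and meiocyte (adjusted p = 0.397), zygote and microspore (0.00712, under 2-fold) and zygote and egg (0.0168), did not differ past the limits. With DESeq2 size factors zygote over microspore passed them, at -1.04 (adjusted p = 0.00408). In the comparisons of egg and zygote with meiocyte or microspore, *GEX1* passed the filter on low counts only through meiocyte or microspore. In zygote over egg it passed only through zygote. Each was the group where it was high, so the direction of these differences was set by the filter and their p-values add no support.

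*GEX2*, the attachment gene, had 632 and 635 TPM in the WT sperm files, 2.03 to 2.74 in egg, 1.60 to 1.98 in zygote, 0.663 to 1.02 in meiocyte and 0.476 to 0.807 in microspore. *GEX3* had 1102 and 1115 TPM in sperm, with 0.332 to 0.605 TPM in zygote, 0.305 to 0.578 in meiocyte, 0.320 to 0.419 in egg and 0.135 to 0.233 in microspore. Sperm stood 272 times above the next cell type for *GEX2* and 2403 times for *GEX3*. Outside sperm, *GEX2* was higher in zygote and in egg than in microspore (log2 fold changes 1.23, SE 0.20, adjusted p = 4.52e-06, and 1.20, SE 0.21, adjusted p = 1.36e-05), and the differences of zygote and egg from meiocyte, 0.80 and 0.79 on the log2 scale, were under 2-fold but passed the limits at 1.02 and 1.19 with library totals in place of TMM. *GEX3* had 15 counts or fewer in every WT library outside sperm.

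*DUO1*, the male germline regulator, was much lower, at 44.7 and 44.8 TPM in the WT sperm files, from 540 and 514 counts. It was already present in microspore, with 1.46 to 2.0 TPM from 14 to 17 counts. In WT meiocyte, egg and zygote it had 0 counts in each of the 9 libraries. The sperm level was 25.4 times the microspore level, and at least 164-fold higher than in meiocyte, 244-fold than in egg and 194-fold than in zygote, with 3 counts in the smallest library of the other group as the floor (floors cover counting error only). In microspore it was at least 5.96-fold higher than in meiocyte. *DUO1* ranked 913th among the sperm-specific genes.

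*ECA1-like1*, named as an egg gene, went against that label. It had 5.51 to 6.85 TPM in WT egg, 4.02 to 5.25 in zygote and 3.84 to 5.28 in meiocyte, whereas microspore had 0.159 to 0.191 TPM from 1 count per library and both sperm files had 0 counts. The egg mean was 1.29 times the zygote mean, and 38.7% of the summed WT level lay in egg and 30.1% in zygote. Neither zygote over egg (log2 fold change 0.050, SE 0.17, adjusted p = 0.799) nor egg over meiocyte (-0.31, SE 0.19, adjusted p = 0.118) passed the limits. Its tau, an index that runs from 0 for an even level to 1 for a single cell type, was 0.605, below the median of 0.706 over the 17961 genes, while the 5 sperm genes had 0.99 or more, as did 7.19% of the 17961 genes. The gene was lower in WT sperm than in egg by at least 10.8-fold.

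*MATL* had 3 counts or fewer in every WT library, and only 1 of the 3 microspore libraries had any, 3 counts or 0.216 TPM. Its specificity in WT could not be ranked at this depth.

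**Figure D1:**
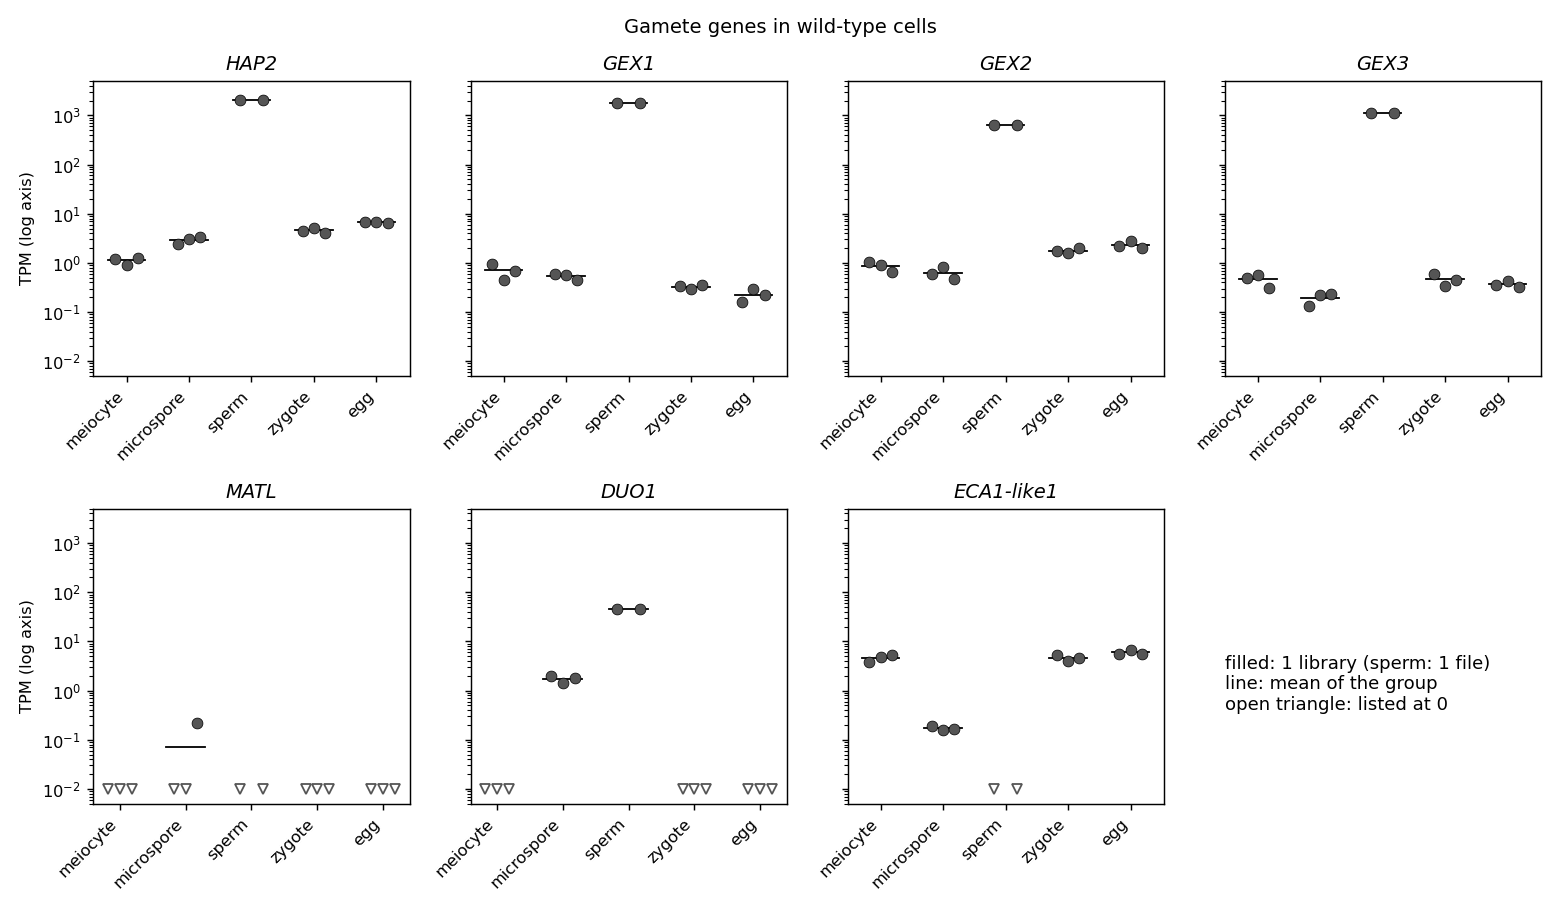
Level of each of the 7 genes in the 5 WT cell types, in TPM on a log axis, with each filled point a library (for sperm, a file), lines the group means and open triangles libraries listed at 0. *HAP2*, *GEX1*, *GEX2*, *GEX3* and *DUO1* peak in sperm, at 44.7 to 2097 TPM, whereas *ECA1-like1* lies between 3.84 and 6.85 TPM in meiocyte, zygote and egg.

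On the scale of the count comparisons, with library sizes normalized by TMM, WT sperm over WT egg gave 5 genes higher, 1 lower (*ECA1-like1*) and 1 not tested (*MATL*). A gene was called here when WT sperm was over 2-fold higher than each library of the other cell type, or over 2-fold lower than each. Over meiocyte and zygote the same 5 were higher and the same 1 lower, and over microspore 5 were higher and 2 were not tested. These counts do not set the genes apart, since 82.5% of all genes compared were called between WT sperm and egg, 80.8% against meiocyte, 79.5% against microspore and 82.0% against zygote. Against egg, meiocyte and zygote, *DUO1* passed the filter on low counts only through sperm, and *ECA1-like1* only through the other cells. Against microspore, *GEX3* passed it only through sperm. For *HAP2*, *GEX1*, *GEX2* and *GEX3* the log2 ratios of sperm to egg were 8.82, 13.20, 8.63 and 11.85, beside a median of -0.59 over all 25587 genes compared. Scaling by library totals in place of TMM moved that median by -0.68.

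Among the WT cell types other than sperm, calls at an adjusted p under 0.01 and over 2-fold were made for 3 of 5 tested genes for microspore over meiocyte (62.0% of all genes), 2 of 4 for egg over meiocyte (51.5%), 4 of 5 for egg over microspore (66.9%), 2 of 5 for zygote over meiocyte (46.6%) and 3 of 5 for zygote over microspore (68.5%). In the comparisons with microspore, *DUO1* and *ECA1-like1* passed the filter only through the group where they were high. In egg and zygote over meiocyte and over microspore, *GEX1* passed it only through meiocyte or microspore, and in zygote over egg only through zygote. The filter set the direction of such differences, so these add no support. For zygote over egg, 0 of 5 tested genes were called by edgeR's quasi-likelihood test or by DESeq2, and 3 had an unadjusted p under 0.05, while 22.8% of all genes were called. For zygote over egg, the log2 value was 0.98 for *GEX1* (SE 0.37, adjusted p = 0.0168) and 0.74 for *GEX3* (SE 0.35, adjusted p = 0.0496), both short of the limits. *HAP2* was at 4.57 ± 0.578 TPM in zygote and 6.73 ± 0.185 TPM in egg (SD, n = 3 each).

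In *cmt3b* sperm, *HAP2* and *GEX1* were lower than in WT sperm, *DUO1* and *MATL* were higher, and *GEX2* and *GEX3* differed less from WT. Of the 6 genes compared, 2 were over 2-fold higher and 2 over 2-fold lower in all 3 *cmt3b* libraries, but 68.1% of the 22567 genes compared passed the same rule, so the share is no result about these genes. *MATL* entered this comparison only through *cmt3b* sperm, where it was high. The median log2 ratio was -0.46 over the 6 genes, the same with *MATL* at its lower bound, and 0.047 over all genes.

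*GEX1* had the lowest ratio to WT of the 6 genes, with 434, 458 and 458 TPM in *cmt3b* sperm, against 1818 and 1826 TPM in the WT files. The *cmt3b* mean was 24.7% of WT, and the log2 ratio was -2.05, with single libraries from -2.11 to -2.02. *HAP2* had 904, 951 and 926 TPM in *cmt3b* sperm and 2085 and 2097 TPM in WT sperm, or 44.3% of WT. Its log2 ratio was -1.20 (-1.25 to -1.17), but -0.95, under 2-fold, when counts were scaled by library totals without TMM. Each *cmt3b* library lay below WT sperm for both genes, and the spread between WT sperm samples is not known.

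*GEX2* had 425, 488 and 475 TPM in *cmt3b* sperm and 632 and 635 TPM in WT sperm. *GEX3* had 764, 876 and 871 TPM in *cmt3b* sperm and 1102 and 1115 TPM in WT sperm. Both were below WT in each *cmt3b* library, at 73.0% and 75.5% of WT, with log2 ratios of -0.49 and -0.44, and neither was over 2-fold lower.

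*DUO1* went the other way. It had 161, 147 and 148 TPM in *cmt3b* sperm, from 1620 to 1996 counts, against 44.7 and 44.8 TPM in WT sperm. This was 3.40 times the WT level, with a log2 ratio of 1.73 (1.68 to 1.81). Each *cmt3b* library lay above WT sperm.

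*MATL* had 43, 37 and 34 counts in the *cmt3b* sperm libraries, or 2.35, 2.25 and 1.69 TPM, whereas both WT sperm files had 0 counts. It was at least 12.5-fold higher in *cmt3b* sperm, with 3 counts in WT sperm as the floor. No other group had over 3 counts of it in any library. *ECA1-like1* had 1, 0 and 0 counts in *cmt3b* sperm and 0 and 0 in WT sperm, so no difference was detectable.

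**Figure D2:**
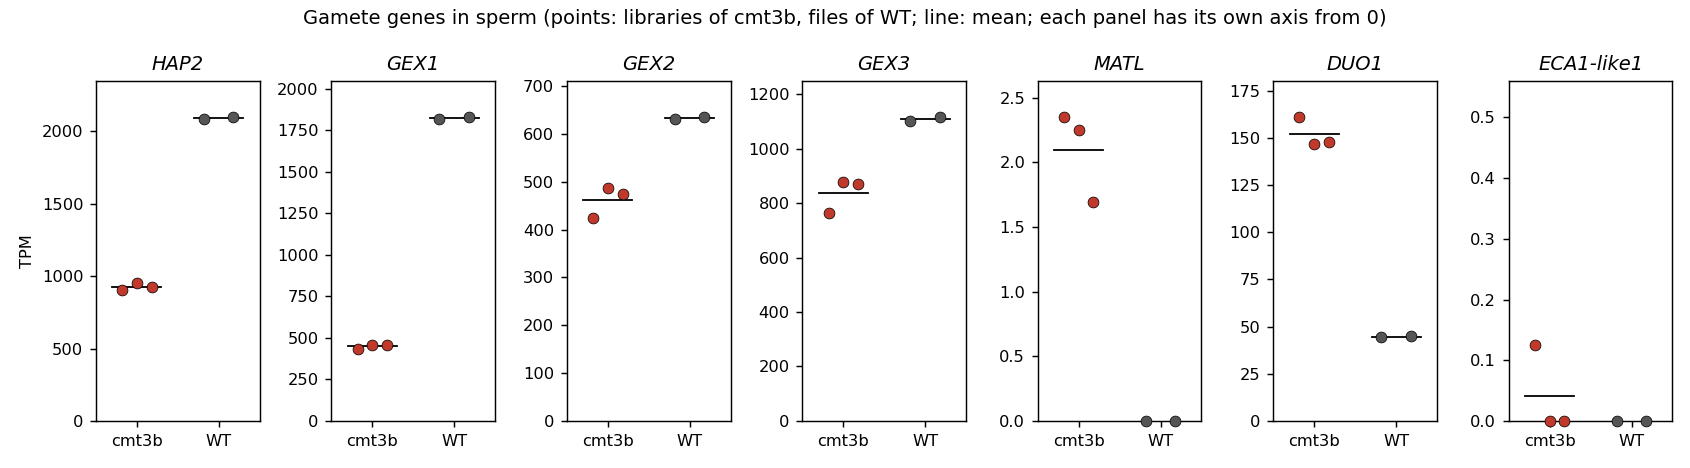
TPM of the 7 genes in *cmt3b* sperm (3 libraries, left in each panel) and WT sperm (2 files, right), with lines at the means and a separate axis from 0 in each panel. *HAP2* and *GEX1* reach 44.3% and 24.7% of the WT level, *DUO1* reaches 3.40 times the WT level, and *MATL* has counts in *cmt3b* sperm and none in WT sperm.

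Together, *HAP2*, *GEX1*, *GEX2* and *GEX3* made up 0.253% to 0.277% of all TPM in *cmt3b* sperm and 0.564% and 0.567% in WT sperm. The make-up of this sum shifted as well. *GEX1* took 16.5% to 17.2% of it in *cmt3b* sperm and 32.2% in both WT files, and *GEX3* took 30.2% to 31.9% in *cmt3b* sperm and 19.6% and 19.7% in WT sperm. *HAP2* held a near-even share, 33.9% to 35.8% in *cmt3b* sperm and 37.0% in the WT files. These shares are taken within a library and do not depend on the scaling between libraries.

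**Figure D3:**
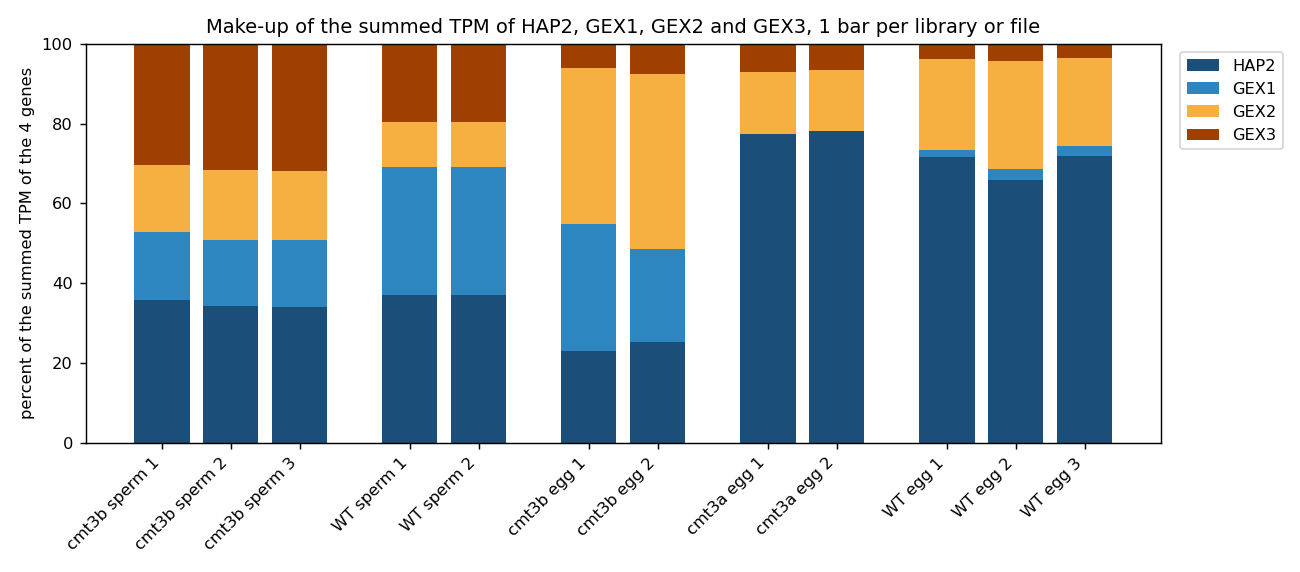
Percent of the summed TPM of *HAP2*, *GEX1*, *GEX2* and *GEX3* held by each gene, 1 bar per library (per file for WT sperm), in sperm (*cmt3b*, WT) and egg (*cmt3b*, *cmt3a*, WT). *GEX1* holds 16.5% to 17.2% in *cmt3b* sperm against 32.2% in WT sperm, and *HAP2* holds 23.0% and 25.1% in *cmt3b* egg against 65.8% to 71.9% in WT egg.

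In *cmt3b*, too, the sperm genes were highest in sperm. Compared with *cmt3b* egg, meiocyte and zygote, 6 of the 7 genes were higher in *cmt3b* sperm and *ECA1-like1* was lower, by edgeR, while 78.5%, 79.1% and 78.5% of all genes tested were called. Genes at or near 0 in the other cells, such as *MATL* and *DUO1*, passed the filter on low counts only through *cmt3b* sperm. So did *GEX3* in the comparisons with *cmt3b* egg and meiocyte. *ECA1-like1* passed it only through the other cells. The direction of such calls was set by the filter, so they add no support. The log2 fold changes over *cmt3b* egg were 10.16 for *HAP2* (SE 0.13, adjusted p = 1.67e-20), 8.93 for *GEX1* (SE 0.13), 8.38 for *GEX2* (SE 0.12) and 11.83 for *GEX3* (SE 0.17). *DUO1* had 1976, 1620 and 1996 counts in *cmt3b* sperm against 1 count in each *cmt3b* egg library, and *ECA1-like1* had 1, 0 and 0 counts in *cmt3b* sperm against 90 and 121 in *cmt3b* egg.

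Eggs of both mutants were then set against WT egg. Of the 4 genes with enough counts to be tested in *cmt3b* egg over WT egg, *GEX1* and *ECA1-like1* rose, *HAP2* fell and *GEX2* was not called, beside 22.7% of 21466 genes called in all. The median log2 fold change was 1.04 over the 4 genes and -0.0080 over all genes tested. The first includes *GEX1*, at 2.78, which passed the filter on low counts only through *cmt3b* egg, where it was high. *HAP2* was at -2.34, *GEX2* at 0.0079 and *ECA1-like1* at 2.06, so the median of the 4 shows no common shift of the list.

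*HAP2* had 0.987 and 0.964 TPM in *cmt3b* egg, from 20 and 22 counts, against 6.94, 6.65 and 6.60 TPM in WT egg. It fell by 2.34 on the log2 scale (SE 0.18, adjusted p = 2.32e-13). In *cmt3a* egg *HAP2* had 5.04 and 4.76 TPM, and its log2 fold change over WT egg was -0.11 (95% interval -0.30 to 0.083, adjusted p = 0.311), which is no call, and -0.45 (adjusted p = 0.000323), still under 2-fold, with counts scaled by library totals. The *cmt3a* and *cmt3b* eggs differed from each other by 2.25 on the log2 scale (SE 0.21, adjusted p = 3.37e-09), higher in *cmt3a*.

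*GEX1* moved opposite to *HAP2*. It had 1.36 and 0.897 TPM in *cmt3b* egg, from 27 and 20 counts, against 0.163, 0.293 and 0.226 TPM in WT egg, and rose by 2.78 on the log2 scale (SE 0.36, adjusted p = 4.26e-08). Both *cmt3a* egg libraries had 0 counts. *GEX1* in *cmt3a* egg was at least 2.09-fold lower than in WT egg and at least 13.2-fold lower than in *cmt3b* egg, and the adjusted p against *cmt3b* egg was 2.90e-08. *GEX1* passed the filter on low counts in the comparisons with *cmt3b* egg only through that group, where it was high, and it was not tested between *cmt3a* egg and WT egg. The *cmt3b* egg level of *GEX1* remained far below sperm, at 1.13 TPM against 449.9 TPM in *cmt3b* sperm.

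*GEX2* had 1.68 and 1.69 TPM in *cmt3b* egg, 1.02 and 0.928 TPM in *cmt3a* egg, and 2.21, 2.74 and 2.03 TPM in WT egg. In *cmt3b* egg the log2 fold change was 0.0079 (95% interval -0.33 to 0.35, adjusted p = 0.969). In *cmt3a* egg it was -0.88 (SE 0.17, adjusted p = 0.000167), under 2-fold, and -1.22 with library totals, which passes the limits. *GEX3* had 4 and 5 counts in *cmt3b* egg, 15 and 11 in *cmt3a* egg and 9 to 12 in WT egg, and its log2 fold change in *cmt3a* egg was 0.61 (95% interval -0.11 to 1.33, adjusted p = 0.132).

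*ECA1-like1* was higher in both mutant eggs. It had 16.4 and 19.5 TPM in *cmt3b* egg, from 90 and 121 counts, 11.9 and 15.7 TPM in *cmt3a* egg, and 5.53, 6.85 and 5.51 TPM in WT egg. It rose by 2.06 on the log2 scale in *cmt3b* egg (SE 0.16, adjusted p = 6.05e-13) and by 1.57 in *cmt3a* egg (SE 0.17, adjusted p = 1.35e-07). The mutants did not differ from each other past the limits (*cmt3a* over *cmt3b*, -0.47, 95% interval -0.81 to -0.14, adjusted p = 0.0161). No mutant library overlapped with WT.

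In *cmt3a* egg over WT egg, *ECA1-like1* was the 1 call among 4 tested genes, where 38.1% of all genes were called, and in *cmt3a* egg over *cmt3b* egg *HAP2* was higher and *GEX1* lower among 4 tested, where 37.0% were. *MATL* had 3 and 1 counts in *cmt3a* egg and 0 in every *cmt3b* and WT egg library. *DUO1* had 1 and 1 counts in *cmt3b* egg, 1 and 0 in *cmt3a* egg and 0 in WT egg. Neither passed the filter on low counts. TPM and the tested fold changes use different scalings. With counts scaled by library totals in place of TMM, the median of all genes tested moved by -0.23 on the log2 scale in *cmt3b* egg and by -0.34 in *cmt3a* egg, and the calls of *HAP2* and *GEX1* in *cmt3b* egg and of *ECA1-like1* in both held. The pollen loci summed to 0.877 and 0.992 TPM in *cmt3b* egg, 0.111 and 0.206 TPM in *cmt3a* egg and 0.159 to 0.318 TPM in WT egg. These sums lie near the floor. Of the 3 loci, 1 had over 3 counts in a library of *cmt3b* egg, 0 in *cmt3a* egg and 1 in WT egg. The 7 meiosis loci summed to 60.4 and 63.8 TPM in *cmt3b* egg, 101.7 and 106.0 TPM in *cmt3a* egg and 106.8 to 108.0 TPM in WT egg. The part of either list in these results was not tested.

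**Figure D4:**
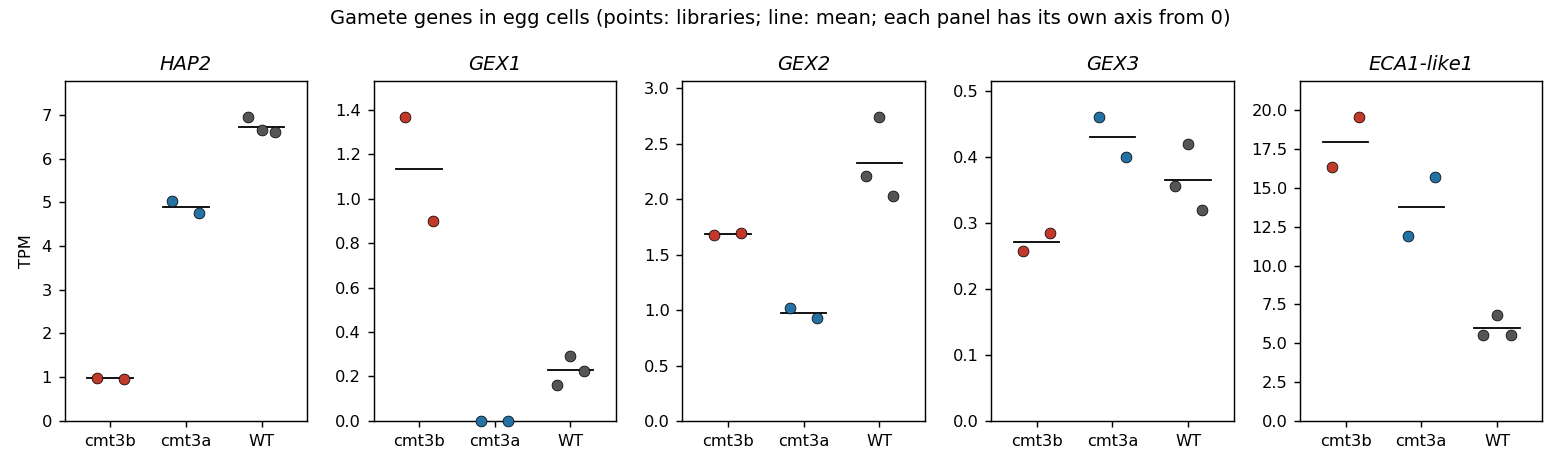
TPM of *HAP2*, *GEX1*, *GEX2*, *GEX3* and *ECA1-like1* in *cmt3b* egg (2 libraries), *cmt3a* egg (2) and WT egg (3), left to right, with lines at the means and a separate axis from 0 in each panel. *HAP2* lies at 0.964 and 0.987 TPM in *cmt3b* egg against 6.60 to 6.94 TPM in WT egg, *GEX1* is at 0 in both *cmt3a* libraries, and *ECA1-like1* is above WT in all 4 mutant libraries.

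In *cmt3b* zygote and meiocyte no gene of the 7 passed both limits. For *cmt3b* zygote over WT zygote, 0 of 5 tested genes were called by edgeR or DESeq2 (3 had an unadjusted p under 0.05), beside 16.8% of all genes. *HAP2* had 2.93, 2.77 and 2.69 TPM in *cmt3b* zygote and 4.44, 5.21 and 4.07 TPM in WT zygote, lower in each *cmt3b* library but under 2-fold (log2 fold change -0.70, SE 0.13, adjusted p = 4.00e-05). *GEX2* had 0.829 to 0.953 TPM in *cmt3b* zygote and 1.60 to 1.98 TPM in WT zygote, with -0.97 (SE 0.16, adjusted p = 1.13e-05), just short of 2-fold. It passed at -1.02 without WT zygote replicate 2 and at -1.01 without *cmt3b* zygote replicate 3. *ECA1-like1* had 6.52 to 7.29 TPM in *cmt3b* zygote and 4.02 to 5.25 TPM in WT zygote (0.55, SE 0.18, adjusted p = 0.00988), so every *cmt3b* library was above WT, at under 2-fold.

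For *cmt3b* meiocyte over WT meiocyte, 0 of 4 tested genes were called by edgeR or DESeq2 (1 had an unadjusted p under 0.05), beside 18.6% of all genes. *HAP2* had 1.59, 1.09 and 1.91 TPM in *cmt3b* meiocyte and 1.18, 0.927 and 1.29 TPM in WT meiocyte, so the groups overlapped (log2 fold change 0.62, SE 0.21, adjusted p = 0.00991). *GEX3* had 1, 5 and 4 counts in *cmt3b* meiocyte and 11, 11 and 8 in WT meiocyte. It failed the filter, and without the filter its log2 fold change was -1.71 (adjusted p = 0.00418).

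The *cmt3b* effect was then compared between cell types by an interaction term, with p-values adjusted over all genes and a limit of 0.01. *HAP2* differed in each pair, by -1.64 between egg and zygote (SE 0.24, adjusted p = 4.12e-07), -2.97 between egg and meiocyte (SE 0.29, adjusted p = 2.73e-11) and -1.34 between zygote and meiocyte (SE 0.25, adjusted p = 1.95e-05), so its log2 fold change was lowest in egg. The *GEX1* effect was larger in egg than in zygote by 2.56 (SE 0.52, adjusted p = 8.24e-05) and than in meiocyte by 2.51 (SE 0.46, adjusted p = 1.18e-05). The *ECA1-like1* effect was larger in egg by 1.51 (SE 0.24, adjusted p = 2.06e-06) and 2.22 (SE 0.26, adjusted p = 2.26e-09). Of the 5 genes tested, 4, 3 and 3 differed in the pairs egg and zygote, egg and meiocyte, and zygote and meiocyte, while 54.5%, 52.1% and 51.5% of all genes did. The sperm ratio could not enter such a test, because WT sperm was 1 sample.

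**Figure D5:**
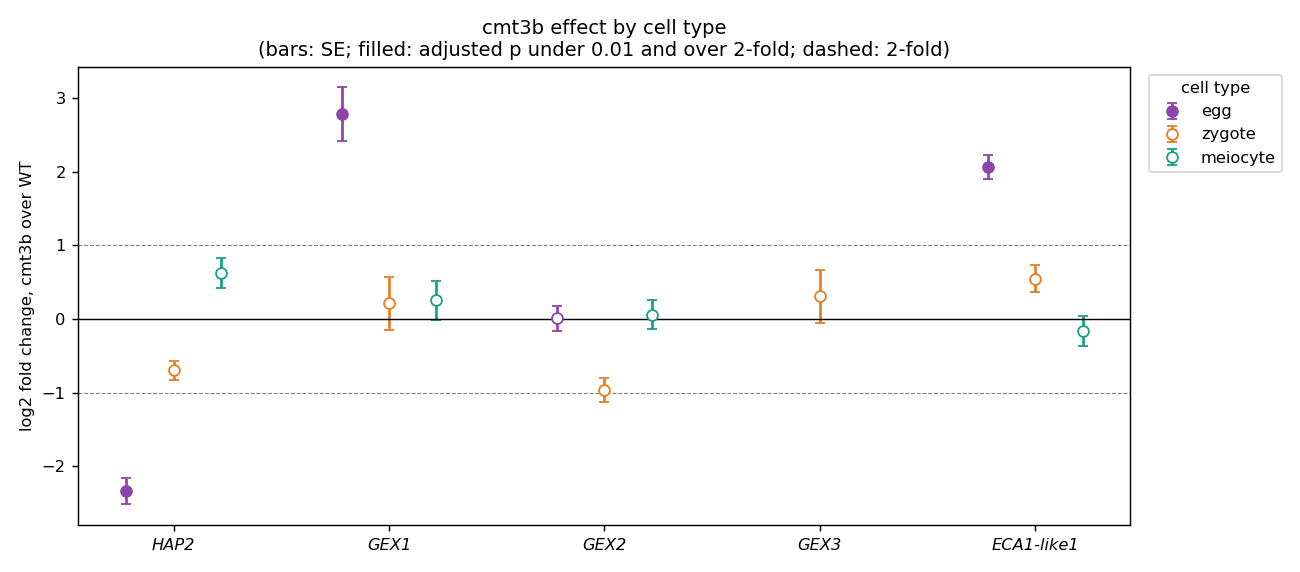
Log2 fold change of *cmt3b* over WT in egg, zygote and meiocyte for the 5 genes tested in at least 1 of them, with bars of 1 SE and filled points where the adjusted p was under 0.01 and the change over 2-fold. In egg, *HAP2* lies at -2.34, *GEX1* at 2.78 and *ECA1-like1* at 2.06, and no point of zygote or meiocyte is filled.

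Genes of similar pattern were sought over the mean log2 CPM of the 10 groups among 19931 other genes with at least 10 CPM in a group. Pearson's r over these 10 group means is a description and carries no test, and the groups share the contrast of sperm with the rest. For *HAP2* the nearest were LOC_Os11g14730 (r = 0.994) and LOC_Os06g49990 (0.992). They had 4.61 and 34.1 CPM in *cmt3b* egg against 10.3 and 58.2 CPM in WT egg, and 381 and 501 CPM in *cmt3b* sperm against 344 and 779 CPM in WT sperm, so the first was not lower in *cmt3b* sperm. The genes were picked over group means that include these groups. For *GEX1* they were LOC_Os08g40540 (0.993) and LOC_Os04g32180 (0.991), the second with 0.478 CPM in *cmt3b* egg, 0 in *cmt3a* egg and 0.0658 in WT egg. For *DUO1* they were LOC_Os07g04630 and LOC_Os11g07550 (both 0.997), with 12.5 and 36.9 CPM in *cmt3b* sperm against 4.04 and 13.3 CPM in WT sperm.

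For *MATL* the nearest genes were LOC_Os02g01679 and LOC_Os01g38650 (0.997 and 0.996), with 20.5 and 10.2 CPM in *cmt3b* sperm and 0 in WT sperm. *ECA1-like1* had the fewest close neighbours, 3 genes with r over 0.98, against 26 for *MATL*, 33 for *GEX1*, 62 for *HAP2*, 75 for *DUO1*, 177 for *GEX2* and 194 for *GEX3*. Its nearest was LOC_Os01g59780 (0.994), at 14.3 CPM in *cmt3b* egg, 8.30 in *cmt3a* egg and 4.00 in WT egg, followed by LOC_Os12g06020 (0.985). For *GEX2* the nearest were LOC_Os04g54600 (0.996) and LOC_Os05g02160 (0.995), and for *GEX3* LOC_Os12g20090 (0.997) and LOC_Os02g13760 (0.995). Among the 7 genes, r was 0.989 between *GEX2* and *GEX3* and 0.915 between *HAP2* and *GEX1*, and *ECA1-like1* was negative with every other gene, from -0.89 with *DUO1* to -0.50 with *MATL*.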

How the data were processed

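Per the study's methods, the authors trimmed reads (fastp 0.20.1), mapped them on the MSU7.0 genome (hisat2) and counted with featureCounts, and the labels and the paper name different cDNA amplification kits. The deposited files hold, per feature, raw counts and the FPKM and TPM values the authors derived from them, which recomputation from the counts matched to within 1.78e-14. Gene lengths for this were derived from the same counts and FPKM. The match therefore shows only that a single length per gene serves all libraries. TPM served for levels and counts for tests. Whether counting used strand is not given in the sources used here. The 32 BS-seq samples were not used here. The members and lists were chosen with earlier results of these data known.

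Counts were fitted in R 4.3.3 with edgeR 4.0.16 (TMM, filterByExpr at a minimum count of 10, glmQLFit and glmQLFTest) on all genes of the 2 groups compared. P-values were adjusted by Benjamini-Hochberg over all genes tested, and calls needed an adjusted p under 0.01 and over 2-fold. SEs are the log2 fold change divided by the root of F, and 95% intervals are normal. The effects of *cmt3b* were compared in 4-group fits without a fold limit. WT sperm, the rounded mean of its 2 files, was compared by log2 CPM with a prior count of 2. The floor was 3 counts, with TMM-normalized library sizes. On simulated data, edgeR recovered 191 of 200 changed genes for *cmt3b* egg over WT egg, and the sperm ratio 199 of 200 with 12 false calls. The simulated sperm changes were larger than those seen for *HAP2*, *GEX1* and *DUO1*, and the simulated WT sample had the spread of *cmt3b* sperm. The real spread of WT sperm is not known, so this cannot give the error rate of the sperm calls. The genes named are the 7 members, the 2 genes most like each, *CMT3a* and *CMT3b*, and, chosen after their values were seen, 2 tapetum loci. Of the files' identifiers, 0 matched the reference table (RefSeq), so the planned list of other gamete genes could not be built beyond 4 BABY BOOM loci, which summed to at most 2.50 TPM, in WT sperm. The meiosis list summed to 120.2 to 135.8 TPM in *cmt3b* sperm, 141.9 to 144.0 TPM in WT sperm and 356 to 372 TPM in WT meiocyte, and the tapetum list to at most 65916 TPM, in microspore. Alternatives were DESeq2 1.42.0 (test and size factors), no filter, a replicate block, 1 fit of all groups, other limits, each replicate left out, and library totals without TMM, chosen after seeing the data.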

Additional observations from a re-analysis of the deposited data

Results flagged for a closer look

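The effect of *cmt3b* differed between cell types, by the interaction test, for 10 pairs of a gene and 2 cell types. For *HAP2* the log2 fold change in egg minus that in zygote was -1.64, in egg minus meiocyte -2.97 and in zygote minus meiocyte -1.34. For *GEX1* it was 2.56 for egg minus zygote and 2.51 for egg minus meiocyte. For *ECA1-like1* it was 1.51 for egg minus zygote and 2.22 for egg minus meiocyte.

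For *GEX2*, egg minus zygote gave 0.97 (SE 0.24, adjusted p = 0.000908) and zygote minus meiocyte gave -1.04 (SE 0.25, adjusted p = 0.000632), while neither single effect in egg or meiocyte was called. For *GEX3*, zygote minus meiocyte gave 2.0 (SE 0.62, adjusted p = 0.00597), which rests on 1 to 16 counts per library and lost its call in 7 of 12 cases when 1 library was left out (values from 1.64 to 2.40 over the 12). Groups of 2 or 3 libraries are too small for a search for single outlying libraries.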

How the results depend on the processing

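The calls of *HAP2*, *GEX1* and *ECA1-like1* in *cmt3b* egg and the 5 sperm genes in WT held under all alternatives run. The 4 calls in *cmt3b* sperm held under all but library totals (*HAP2*, -0.95, against -1.20). Of these, *GEX1* in egg had 7 to 9 counts in WT and passed the filter only through *cmt3b* egg, and *MATL* passed only through *cmt3b* sperm. Library totals also brought *HAP2* in egg over microspore (1.13) and the *ECA1-like1* difference of zygote and meiocyte effects (0.87, adjusted p = 0.00477) past the limits. DESeq2 size factors moved the median of all sperm ratios by -0.22 and library totals by 0.25 in *cmt3b* over WT.

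*GEX2* in *cmt3b* egg, near 0, changed sign: -0.082 in 1 fit of all groups, -0.036 without the filter, -0.11 with the replicate block, -0.22 with library totals, and -0.089 to 0.11 with replicates left out. With library totals *GEX2* also gave -0.13 in *cmt3b* meiocyte and -0.16 in zygote over egg, *ECA1-like1* 0.084 in egg over meiocyte and -0.15 in zygote over egg, and the *GEX1* difference of zygote and meiocyte effects 0.11. In 1 fit of all groups, zygote over egg gave -0.023 for *GEX2* and -0.015 for *ECA1-like1*. With replicates left out, the ranges were -0.13 to 0.19 (*GEX2*, *cmt3b* meiocyte), -0.061 to 0.14 (*GEX2*, zygote over egg), -0.030 to 0.13 (*ECA1-like1*, zygote over egg), -0.21 to 0.12 (*GEX2*, egg minus meiocyte effect) and -0.32 to 0.13 (*GEX1*, zygote minus meiocyte effect). Genes of the list called ranged from 1 to 2 in *cmt3a* egg, and from 0 to 1 in *cmt3b* zygote and *cmt3b* meiocyte. Calls over all genes then ranged from 8250 to 8532, from 3398 to 3600 and from 4337 to 4559.

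In *cmt3a* egg 2 genes of the list were called, in place of 1, without the filter, in 1 fit and with library totals, and in *cmt3b* meiocyte 1, in place of 0, without the filter and in 1 fit. The main settings called 38.1% of all genes in *cmt3a* egg and 18.6% in *cmt3b* meiocyte. At an adjusted p under 0.05 without a fold limit, the list had 2 calls in zygote over egg, 5 in zygote over microspore, 2 in *cmt3a* egg, 4 in *cmt3a* over *cmt3b* egg, 1 in *cmt3b* meiocyte and 3 in *cmt3b* zygote. All genes then had 15784 calls of 21466 tested in *cmt3b* egg, 19068 of 22744 in *cmt3a* egg and 17292 of 21694 in *cmt3a* over *cmt3b* egg. There were 15066 of 20638 in *cmt3b* zygote and 15498 of 23192 in *cmt3b* meiocyte. Zygote over egg had 16812 of 21265, egg over meiocyte 20907 of 23516 and zygote over meiocyte 20100 of 23121. For zygote over microspore, 68.5% of all genes already passed the main limits. Most genes were thus called, so these counts are no result about the list. Without the filter 26831 were called in egg over microspore and 25443 in zygote over microspore. Specific to egg were 26 genes at 5 times, 1 at 20 times, 11 from 1 TPM and 0 by TMM-scaled CPM. Specific to egg and zygote were 291, 65 and 218 genes at 5 times, 20 times and from 1 TPM, and to sperm 2714 from 1 TPM. Same-numbered libraries did not deviate together (38 correlations, -0.071 to 0.056). With 2 or 3 libraries per group, this cannot tell whether same-numbered libraries share a source. The replicate block moved no count of calls by over 1.5 times. The cause of all these shifts was not tested. Of 2109 values, 2018 were rated as unchanged. Of these, 1388 were values of single members, which kept direction and side of the limit. The rest were counts of genes, which stayed within 1.5 times. Members below about 10 counts per library (*GEX1* in WT egg, *GEX3* in *cmt3b* egg, *MATL* and *DUO1* in egg) are limited by depth.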
